A study of Mus musculus with 6 samples.

Results

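Enteroendocrine cells are the hormone-secreting cells of the gut epithelium, and they store peptide hormones in dense-core granules. The 10 genes described here encode proteins that build these granules, sense calcium in the cells that carry them, or cut prohormones inside them. They are the granins Chga, Chgb, Scg2, Scg3 and Scg5, the calcium sensor Scgn, the processing enzymes Pcsk1 and Cpe, and the granule membrane proteins Ptprn and Ptprn2. All 10 were found by symbol among the 46078 genes of the deposited count table, each with a single row. The genes were selected on their known roles, with the difference between the ages in these same libraries already known. Their age differences are therefore given as a description and support nothing beyond themselves.

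RNA was measured in FACS-sorted epithelial cells (EpCam-positive, CD45-negative) of the small intestine of untreated C57BL/6JRj mice. The aged group holds 3 libraries from mice of 20 to 22 months, and the young group 3 libraries from mice of 2 to 3 months. The design text of the series names 3 mice per age, the labels of the libraries name none, and each library was taken as 1 mouse. If libraries shared a mouse, the p-values would measure technical spread. The question behind the comparison is what ageing changes in this epithelium, and the title of the series speaks of inflammaging. The sort keeps all epithelial cell types together, so fewer enteroendocrine cells and less RNA per such cell cannot be told apart in any value below.

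As background, granins are acidic proteins that aggregate with hormones and calcium and help to form the granule core. Prohormone convertase 1/3, the product of Pcsk1, cuts prohormones after pairs of basic residues, and carboxypeptidase E, the product of Cpe, trims the basic residues left at the cut ends. Ptprn and Ptprn2 encode IA-2 and IA-2 beta (phogrin), which span the granule membrane and resemble receptor tyrosine phosphatases. Enterochromaffin cells, which make serotonin, are known for high levels of chromogranins.

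The promoters of 4 members are shown first, because these genes stand for the patterns described below. Scg3, Ptprn and Scg2 were lower in every aged library than in any young library, Scg2 with a wider spread among the aged ones. Chgb is the most abundant member. Each window is RefSeq sequence of build GRCm38.p6, running 5′ to 3′ on the gene's strand from 250 bases before to 50 bases after the start site. Capitals mark TGACG or its reverse complement CGTCA, the core letters of the cAMP response element. Where both overlap they form the full palindrome TGACGTCA.
Scg3: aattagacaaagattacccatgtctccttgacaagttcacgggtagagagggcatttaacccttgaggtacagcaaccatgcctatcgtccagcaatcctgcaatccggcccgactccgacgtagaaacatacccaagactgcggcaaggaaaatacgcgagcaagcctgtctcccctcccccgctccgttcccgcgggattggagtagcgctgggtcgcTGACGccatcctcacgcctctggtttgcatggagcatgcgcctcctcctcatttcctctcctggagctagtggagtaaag
Ptprn: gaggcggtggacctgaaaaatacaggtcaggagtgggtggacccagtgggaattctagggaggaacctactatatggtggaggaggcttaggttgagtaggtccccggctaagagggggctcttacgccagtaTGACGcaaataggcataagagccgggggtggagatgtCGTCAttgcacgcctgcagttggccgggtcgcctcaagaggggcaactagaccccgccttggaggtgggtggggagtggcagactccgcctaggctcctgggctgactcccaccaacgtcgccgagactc
Scg2: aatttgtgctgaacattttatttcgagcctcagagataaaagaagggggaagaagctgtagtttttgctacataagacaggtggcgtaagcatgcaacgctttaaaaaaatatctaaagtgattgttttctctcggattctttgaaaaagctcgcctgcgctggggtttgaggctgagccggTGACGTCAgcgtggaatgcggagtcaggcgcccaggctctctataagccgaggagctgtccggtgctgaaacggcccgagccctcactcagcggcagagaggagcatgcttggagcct
Chgb: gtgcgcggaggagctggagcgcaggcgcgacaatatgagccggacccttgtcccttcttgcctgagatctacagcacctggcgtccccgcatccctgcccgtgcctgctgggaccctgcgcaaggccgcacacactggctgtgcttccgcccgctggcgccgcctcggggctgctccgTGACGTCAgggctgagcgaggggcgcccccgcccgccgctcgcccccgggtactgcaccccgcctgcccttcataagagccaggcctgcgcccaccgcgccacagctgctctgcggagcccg
These windows lie at chr9:75684007-75684306 (minus strand), chr1:75264159-75264458 (minus strand), chr1:79439977-79440276 (minus strand) and chr2:132781392-132781691 (plus strand). For Ptprn the table also holds another start site, whose window at chr1:75263722-75264021 has no match to any of the letters searched.

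The table of promoters held 9 of the 10 members. The full palindrome TGACGTCA, searched on both strands, was present in 3 of them. It began at position -72 in Chgb, -68 in Scg2 and -78 in Pcsk1, where the base before the start site is -1. Between the ages Scg2 did not overlap, while Chgb and Pcsk1 did. Of 32851 promoter windows of the same length, 1.79% held these letters. The shorter TGACG, which is contained in the palindrome, occurred in 7 of the 9 members, Chga, Chgb, Scg2, Scg3, Scg5, Pcsk1 and Ptprn, and in 20.8% of all windows. The letters TATAAA were found in Chga alone, and in 13.6% of all windows. CAGNTG, an E-box form, was found in Chga, Chgb, Scg2, Scg5 and Ptprn, and in 51.4% of all windows. A match is a description of the letters, not of binding.

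Total counts ran from 41479573 to 58989166 over the 6 libraries. Epcam stood at 1510 ± 11.3 CPM in aged and 1656 ± 18.3 CPM in young libraries (SD, n = 3 each), where CPM is the count scaled to a common library total with TMM factors. The leukocyte gene Ptprc, which encodes CD45, stood at 0.230 ± 0.0403 CPM in aged and 0.235 ± 0.0611 CPM in young libraries. Markers of enteric neurons and glia, which also carry granins, summed to between 4.34 and 5.13 CPM in aged and 3.53 and 6.39 CPM in young libraries over 14 genes. The glial regulator Sox10 and the neuropeptide gene Vip had 0 counts in all 6 libraries. Of the 7 mast cell markers, Cpa3, Mcpt2 and Fcer1a had 0 counts in all libraries, and Kit, at 34.0 ± 3.83 CPM in aged and 40.0 ± 7.58 CPM in young libraries, made up nearly the whole sum of 30.5 to 38.0 CPM in aged and 34.0 to 48.5 CPM in young libraries. The 8 leukocyte markers summed to 3.72 to 3.90 CPM in aged and 3.66 to 5.04 CPM in young libraries. The 7 stromal markers, mostly Vim, summed to 32.5 to 39.2 CPM in aged and 28.0 to 48.9 CPM in young libraries. Of the 11 genes tested in these 4 lists, edgeR called 0 at the threshold used below, 0 had an unadjusted p below 0.05, and DESeq2 and limma-voom called 0. The 7 markers of the sorted epithelium summed to 9133 to 9965 CPM in aged and 9446 to 10310 CPM in young libraries, with 0 calls by the same rules.

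Per length of exon, the 10 genes covered a wide range of levels. In CPM per kilobase of exon, averaged over the 6 libraries, Chgb stood highest at 545 and Chga next at 198. Cpe followed at 19.3, Scg2 at 8.36, Pcsk1 at 7.94, Ptprn2 at 7.41, Scgn at 3.40, Scg5 at 2.40, Scg3 at 2.23 and Ptprn at 1.70. The ranges over the 6 libraries did not overlap between Chgb and Chga, between Chga and Cpe, between Cpe and Scg2, or between Ptprn2 and Scgn. The other neighbours overlapped. Among 14864 tested genes with a known exon length, 99.6% had a lower level than Chgb and 98.8% a lower level than Chga, while 32.2% had a lower level than Ptprn. Of the granins, Chga and Chgb were thus abundant, while Scg2 stood above 60.8%, Scg5 above 36.6% and Scg3 above 35.8% of these genes.

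The order of mean levels differed between the ages at the places of Scg2, Scg3 and Ptprn. In young libraries Scg2 (11.0 ± 1.87 CPM per kilobase) stood above Pcsk1 (8.02 ± 1.01) in 3 of 3 libraries. In aged libraries Scg2 (5.74 ± 1.63 CPM per kilobase) stood below both Pcsk1 (7.87 ± 1.05) and Ptprn2 (7.003 ± 0.588) by its mean, although its range overlapped both of theirs. Scg5 was the lowest member in young libraries by its mean, at 2.40 ± 0.372 CPM per kilobase. Its range overlapped that of Ptprn at 2.50 ± 0.357, and Ptprn stood above Scg5 in only 1 of the 3 young libraries. In aged libraries Scg5 (2.40 ± 0.300 CPM per kilobase) stood above Scg3 (1.34 ± 0.152) and Ptprn (0.904 ± 0.106) with no overlap (SD, n = 3 for each value).

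**Figure D1:**
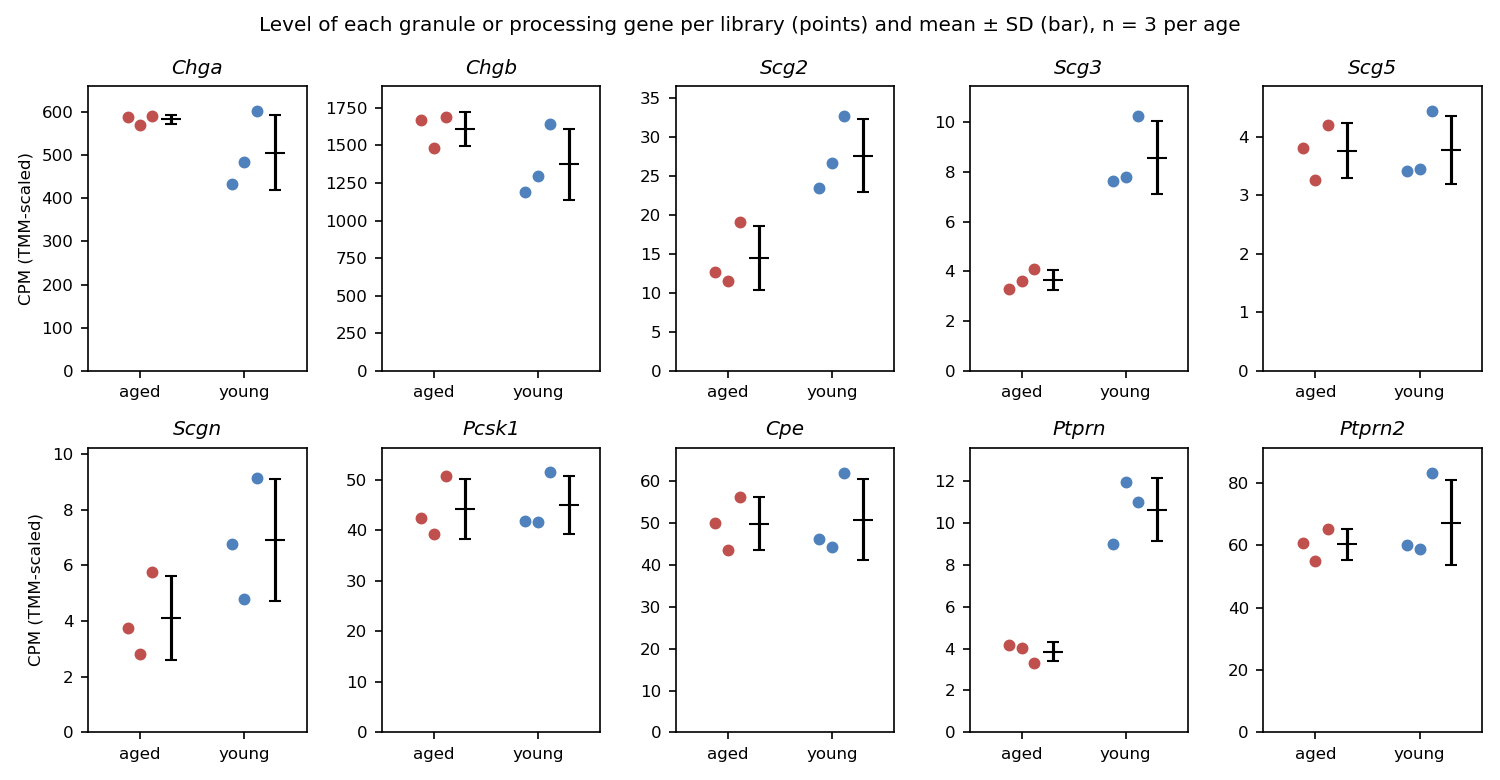
Level of each of the 10 genes in CPM (linear axes that start at 0, a separate scale per gene) in the 3 aged and the 3 young libraries, with the mean and SD beside the points. For Scg2, Scg3 and Ptprn all aged points lie below all young points, while the points of the other 7 genes overlap between the ages.

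Of the 10 members, 2 were called lower in aged mice, Scg3 and Ptprn, and 0 were called higher (edgeR quasi-likelihood test over all genes, Benjamini-Hochberg adjusted p below 0.05). Of all 14923 genes tested, 0.784% were called lower and 0.623% higher by this rule. All 10 members had passed the filter on low counts. At an unadjusted p below 0.05, 4 members were lower (Scg2, Scg3, Scgn and Ptprn) and 0 were higher, against 5.33% lower and 3.90% higher of all genes. DESeq2 called Scg2, Scg3 and Ptprn lower and 0 members higher, with 1.85% of all genes called lower and 1.38% higher. Limma-voom called Scg3 and Ptprn lower and 0 higher, with 0.677% of all genes called lower and 0.523% higher. The 3 aged libraries lay wholly below the 3 young ones in 3 members and wholly above in 0, which they did in 7.49% and 6.30% of all genes. The median log2 fold change of the members, aged over young, was -0.09, and that of all tested genes was 0.0065. Because the age difference was known when the list was made, nothing is read from these shares.

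Among the granins, Chga, the founding member of the family and a common marker of endocrine cells, had 588, 571 and 590.0 CPM in aged libraries against 432, 484 and 602 CPM in young libraries. The aged values were close together and lay within the young range. Chga is on chromosome 12 (102554969 to 102565028, GRCm38). Its log2 fold change was 0.20 ± 0.11 (SE), and it was not called. Chgb, which also forms the granule core, had 1666, 1482 and 1688 CPM in aged and 1188, 1294.5 and 1639 CPM in young libraries (chromosome 2, 132781278 to 132795079). Its groups overlapped, with a log2 fold change of 0.23 ± 0.12. Both chromogranins had their lowest values in young replicate 1.

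Scg2, the precursor of the peptide secretoneurin, had 12.6, 11.6 and 19.1 CPM in aged libraries against 23.5, 26.7 and 32.7 CPM in young libraries (chromosome 1, 79434669 to 79440120). All aged values lay below all young values, and aged replicate 3 stood apart from the other aged libraries. The log2 fold change was -0.93 ± 0.20 (SE), and Scg2 was not called by edgeR (adjusted p = 0.0721). Of the 6 fits without 1 library it was called in 1, without aged replicate 3 (log2 fold change -1.20, adjusted p = 0.00953). In the other 5 the adjusted p was up to 0.281, without aged replicate 1. DESeq2 called Scg2 with all libraries (adjusted p = 2.01e-04).

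Scg3 encodes secretogranin III, which links chromogranin aggregates to the granule membrane and binds carboxypeptidase E. It had 3.27, 3.60 and 4.10 CPM in aged libraries against 7.62, 7.81 and 10.2 CPM in young libraries, from 155, 164 and 230 counts in aged and 335, 462 and 427 counts in young libraries. The highest aged library lay well below the lowest young one. The log2 fold change was -1.22 ± 0.17 (SE, edgeR adjusted p = 0.0101), which is a level in aged libraries of 0.428 times that in young libraries. The call was lost without aged replicate 1 (adjusted p = 0.0697) or without aged replicate 2 (adjusted p = 0.0590), with log2 fold changes of -1.15 and -1.22. Scg3 lies on chromosome 9 from 75643189 to 75684056, and no exon of another annotated gene overlaps its exons.

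Scg5 encodes 7B2, the chaperone of prohormone convertase 2. Its aged libraries had 3.80, 3.27 and 4.21 CPM and its young libraries 3.41, 3.45 and 4.44 CPM, which overlap, with a log2 fold change of 0.0003 ± 0.18. The sign of so small a difference turned with the scaling: it was -0.0022 with RLE factors and -0.017 with upper-quartile factors.

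Scgn encodes secretagogin, a calcium-binding protein with EF hands found in neuroendocrine cells. It had 3.74, 2.81 and 5.77 CPM in aged libraries against 6.78, 4.80 and 9.15 CPM in young libraries. Aged replicate 3 lay above young replicate 2, so the groups overlapped. The log2 fold change was -0.74 ± 0.30 (SE), and Scgn was not called (edgeR adjusted p = 0.482). Its value ranged from -1.08 without aged replicate 3 to -0.49 without young replicate 3, and it was called in none of the 14 alternatives.

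The processing enzymes differed little between the ages. Pcsk1 had 42.3, 39.3 and 50.7 CPM in aged and 41.8, 41.5 and 51.5 CPM in young libraries, a log2 fold change of -0.03 ± 0.12. Cpe had 49.96, 43.5 and 56.2 CPM in aged and 46.2, 44.3 and 62.0 CPM in young libraries, with a log2 fold change of -0.03 ± 0.14. In both genes replicate 3 was the highest library of its age, as it was in all other members except Ptprn. The labels do not say whether replicates of the same number are paired. Neither was called, and both signs turned in fits without single libraries.

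The granule membrane proteins differed from each other. Ptprn had 4.18, 4.01 and 3.33 CPM in aged libraries against 8.96, 11.9 and 11.0 CPM in young libraries, from 198, 183 and 187 counts in aged and 394, 706 and 457 counts in young libraries. All aged values lay well below all young values, and the aged libraries were close to one another. The log2 fold change was -1.47 ± 0.16 (SE, edgeR adjusted p = 0.00483), a level in aged libraries of 0.361 times that in young libraries and the 20th smallest p of the 14923 genes. The call held in all 6 fits without 1 library (adjusted p between 0.00887 and 0.0267). Ptprn lies on chromosome 1 from 75247027 to 75264502. An antisense gene, Gm28294, shares 189 exon bases with it and had at most 2 counts in any library. Its relative Ptprn2 (chromosome 12, 116485720 to 117276849) had 60.6, 55.0 and 65.1 CPM in aged and 60.0, 58.7 and 83.1 CPM in young libraries, with overlap and a log2 fold change of -0.16 ± 0.14 that was not called.

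**Figure D2:**
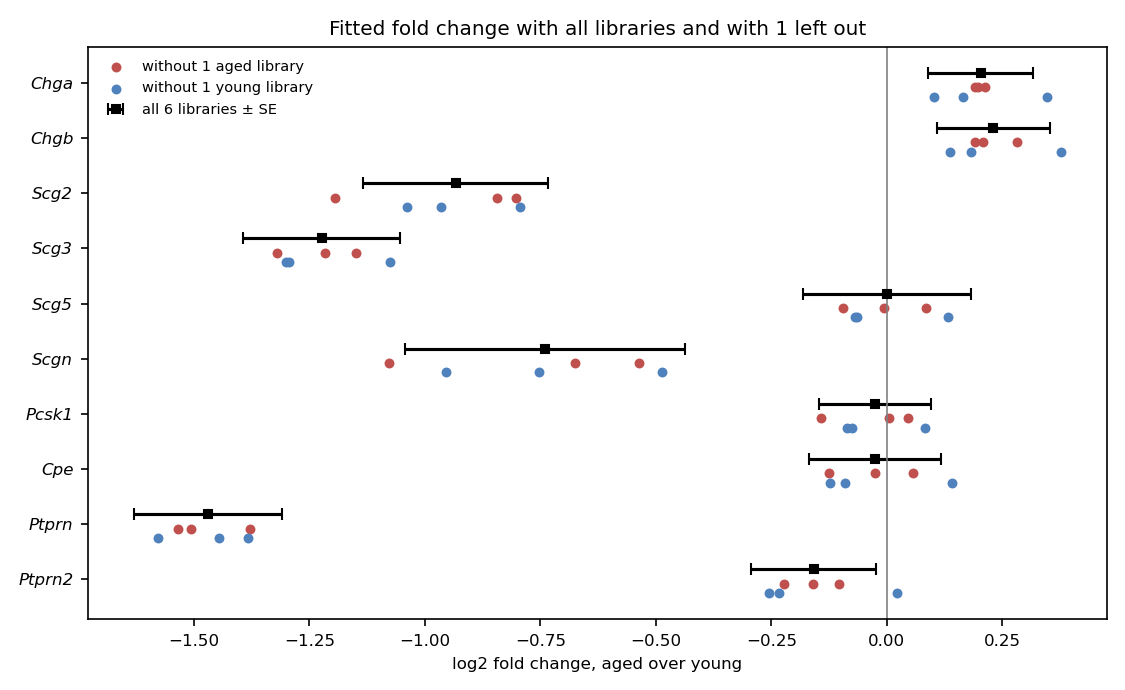
Log2 fold change of each gene, aged over young, with all 6 libraries (black squares, bars are 1 SE) and in the fits without 1 aged library (red) or without 1 young library (blue). Ptprn, Scg3, Scg2 and Scgn lie below 0 in every fit, Chga and Chgb above 0, and the points of Scg5, Pcsk1, Cpe and Ptprn2 fall on both sides of 0.

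Ratios within a library do not depend on the scaling between libraries. For each 1000 Chga counts there were 5.57, 6.30 and 6.95 Scg3 counts in aged libraries against 17.6, 16.1 and 17.0 in young libraries. The groups lay far apart, and the young ratios were closer together than the young CPM values. Per 1000 Chga counts, Ptprn had 7.12, 7.03 and 5.65 counts in aged and 20.7, 24.7 and 18.2 counts in young libraries. Scg2 had 21.5, 20.2 and 32.4 counts in aged and 54.3, 55.2 and 54.3 counts in young libraries. Chgb had 2834, 2596 and 2861 counts in aged and 2747, 2675 and 2721 counts in young libraries, which overlapped. Because Chga itself had a higher mean in aged libraries (583 ± 10.5 against 506 ± 87.1 CPM in young libraries), such ratios lie lower in aged libraries than the CPM values do. Scgn and Ptprn2 thus also lay wholly below the young libraries, at 7.02 ± 2.50 and 103 ± 6.998 counts per 1000 Chga counts in aged and 13.6 ± 3.19 and 133 ± 9.89 in young libraries (SD, n = 3 each). The share of all genes that lay wholly below per Chga count was not computed, so nothing is read from this lack of overlap.

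**Figure D3:**
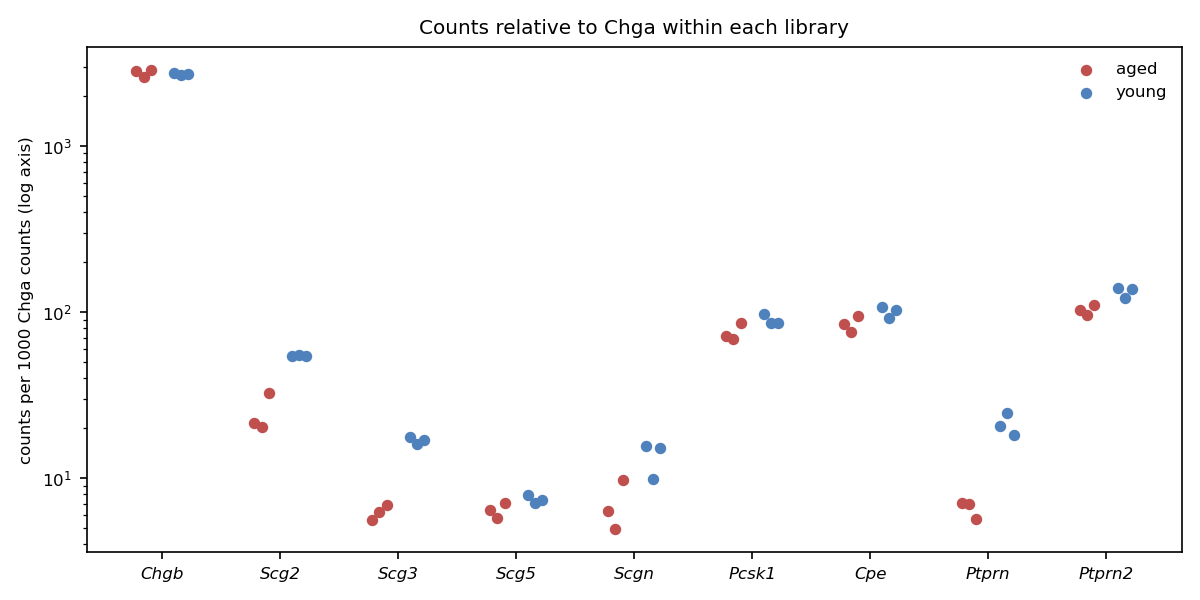
Counts of 9 genes for each 1000 counts of Chga in the same library (log axis), aged libraries in red and young libraries in blue. Scg3 sits between 5.57 and 6.95 in aged libraries and between 16.1 and 17.6 in young libraries, while Chgb overlaps between the ages.

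For 3 pairs, each setting a member that was lower against one that overlapped between the ages and chosen after their values were seen, the groups did not overlap. That choice largely fixed this outcome, so nothing is read from it. For each 100 Ptprn2 counts there were 6.44 ± 1.16 Ptprn counts in aged and 16.2 ± 3.72 in young libraries. For each 100 Scg5 counts there were 97.9 ± 11.98 Scg3 counts in aged and 227 ± 3.76 in young libraries, and for each 100 Pcsk1 counts there were 32.3 ± 4.69 Scg2 counts in aged and 61.3 ± 4.52 in young libraries (SD, n = 3 each). Of the summed level of the 10 genes in CPM per kilobase (847 ± 51.0 in aged and 744 ± 127 in young libraries), Chgb made up 69.4% ± 0.800 in aged and 67.4% ± 0.0109 in young libraries, and Chga 25.02% ± 1.09 in aged and 24.7% ± 0.337 in young libraries. Scg3 made up 0.158% ± 0.0174 in aged and 0.421% ± 0.0129 in young libraries, and Ptprn 0.107% ± 0.0164 in aged and 0.340% ± 0.0559 in young libraries. The shares of Scg2, Scg5, Scgn, Pcsk1 and Ptprn2 also lay wholly lower in aged libraries, although Scg5 and Pcsk1 overlapped in CPM. Chgb and Chga made up most of the sum and had higher means in aged libraries, so nothing is read from these shares.

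Other genes of prohormone processing were read from the same fit. For this list and those below, the shares of all 14923 genes are the same as for the members. By edgeR 0.784% were called lower, by DESeq2 1.85% and by limma-voom 0.677%. At an unadjusted p below 0.05 (edgeR) 5.33% were lower, and 7.49% lay wholly below in aged libraries. The lists were chosen with results of these data known, so nothing is read from their counts. Of 11 tested genes, 1 was called lower, 0 were called higher, and the median log2 fold change was -0.07. At an unadjusted p below 0.05, 4 were lower (Cpm, Pcsk1n, Pcsk6 and Ctsl, the last 2 named after their values were seen) and 0 higher, DESeq2 called 3 lower and limma-voom 1. The called gene was Cpm, a carboxypeptidase anchored at the cell surface, with 12.7, 11.997 and 13.0 CPM in aged and 30.1, 40.1 and 28.5 CPM in young libraries (log2 fold change -1.39 ± 0.14, edgeR adjusted p = 0.00276). Its groups lay far apart, and the call held in all 6 fits without 1 library. In libraries of all epithelial cell types, the cells that gave the reads of Cpm are not shown. The call thus does not speak for prohormone processing in enteroendocrine granules. Pcsk1n encodes proSAAS, an inhibitor of prohormone convertase 1/3. It had 3.02, 1.93 and 1.66 CPM in aged libraries and 4.35, 5.06 and 3.94 CPM in young libraries, with no overlap, and was not called by edgeR (log2 fold change -1.02 ± 0.24, adjusted p = 0.104), though DESeq2 called it (adjusted p = 0.00384). Pam, which amidates peptide ends, stood at 29.0 ± 4.81 CPM in aged and 30.9 ± 4.99 CPM in young libraries. Pcsk2, the convertase that 7B2 serves, was near the detection floor, at 0.254 ± 0.115 CPM in aged and 0.246 ± 0.122 CPM in young libraries, where 3 counts are between 0.0509 and 0.0723 CPM of the total counts.

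Other granule cargo and membrane genes showed no call among 10 tested (edgeR), with 0 higher and 1 lower at an unadjusted p below 0.05, Resp18, a protein of endocrine granules named after its value was seen, and 0 called by DESeq2 or limma-voom. Their median log2 fold change was -0.03. The most abundant, Cyb561, an electron carrier of granule membranes, and Atp6ap1, a subunit of the proton pump, had log2 fold changes of 0.10 ± 0.07 and -0.05 ± 0.07. In libraries of all epithelial cell types the source of their reads is not shown, so these values do not speak for enteroendocrine granules alone. Vgf, another granin-like precursor, stood at 11.7 ± 1.46 CPM in aged and 9.56 ± 2.03 CPM in young libraries, with overlap.

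Of 24 tested genes of granule docking and exocytosis, 0 were called by edgeR or limma-voom, while 0 were higher and 5 lower at an unadjusted p below 0.05 (Syt7, Syt14, Cadps, Rab27b and Doc2b). DESeq2 called Cadps and Rab27b lower. These names fall outside the rule for named genes and were added after their values were seen. The median log2 fold change was -0.11. Cadps, a priming factor of dense-core granules, stood at 3.48 ± 0.697 CPM in aged and 5.93 ± 0.606 CPM in young libraries. The most abundant genes of this list, Rab3d and Unc13b, had log2 fold changes of -0.19 ± 0.12 and -0.02 ± 0.08. Here too the cell type that gave the reads is not shown.

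Among the hormones that the granules store, and Tph1, 2 of 11 tested genes were called lower, Gip and Sst, and 0 higher, with a median log2 fold change of -0.59. Of all genes, 0.784% were called lower and 0.623% higher. Gip, an incretin, had 185, 158 and 184 CPM in aged and 249, 232 and 249 CPM in young libraries, and Sst, which encodes somatostatin, had 20.8, 27.2 and 33.9 CPM in aged and 54.1, 44.2 and 57.7 CPM in young libraries. Neither overlapped between the ages, and 7.49% of all genes lay wholly below in aged libraries. The Gip call held in 2 of the 6 fits without 1 library, without aged replicate 3 or young replicate 2 (adjusted p up to 0.125 in the others), and the Sst call in 1, without aged replicate 3 (adjusted p up to 0.174 in the others). Sst was also not called without a low-count filter (adjusted p = 0.0965) or with a filter of 1 CPM in 3 libraries (adjusted p = 0.0547). The serotonin-making enzyme Tph1 had 87.1, 88.6 and 84.1 CPM in aged and 69.4, 77.9 and 77.8 CPM in young libraries (log2 fold change 0.21 ± 0.07, not called, edgeR adjusted p = 0.349). At an unadjusted p below 0.05, Tph1 was the single gene that was higher, 7 were lower, DESeq2 called 3 lower and 0 higher, and limma-voom 2 lower and 0 higher. Of all genes, 3.90% were higher and 5.33% lower at that unadjusted p (edgeR), and nothing is read from these counts.

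Of the 17 tested transcription factors of enteroendocrine fate, 0 were called by edgeR, DESeq2 or limma-voom, with a median log2 fold change of -0.07. At an unadjusted p below 0.05, 2 were lower, among them Isl1, named after its value was seen, and 0 were higher. Neurog3, which starts the fate, had 29.5, 26.6 and 28.1 CPM in aged and 30.3, 23.3 and 30.0 CPM in young libraries, and Foxa1 had a log2 fold change of 0.25 ± 0.14. Of 6 tested genes of enterochromaffin cells, 0 were called by any of the 3 tools, Tph1 was higher and 0 were lower at an unadjusted p below 0.05, and the median log2 fold change was -0.0031. Ddc, the decarboxylase of serotonin synthesis, stood at 157 ± 12.7 CPM in aged and 160 ± 5.95 CPM in young libraries. Its reads may come from any epithelial cell type of the sort.

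**Figure D4:**
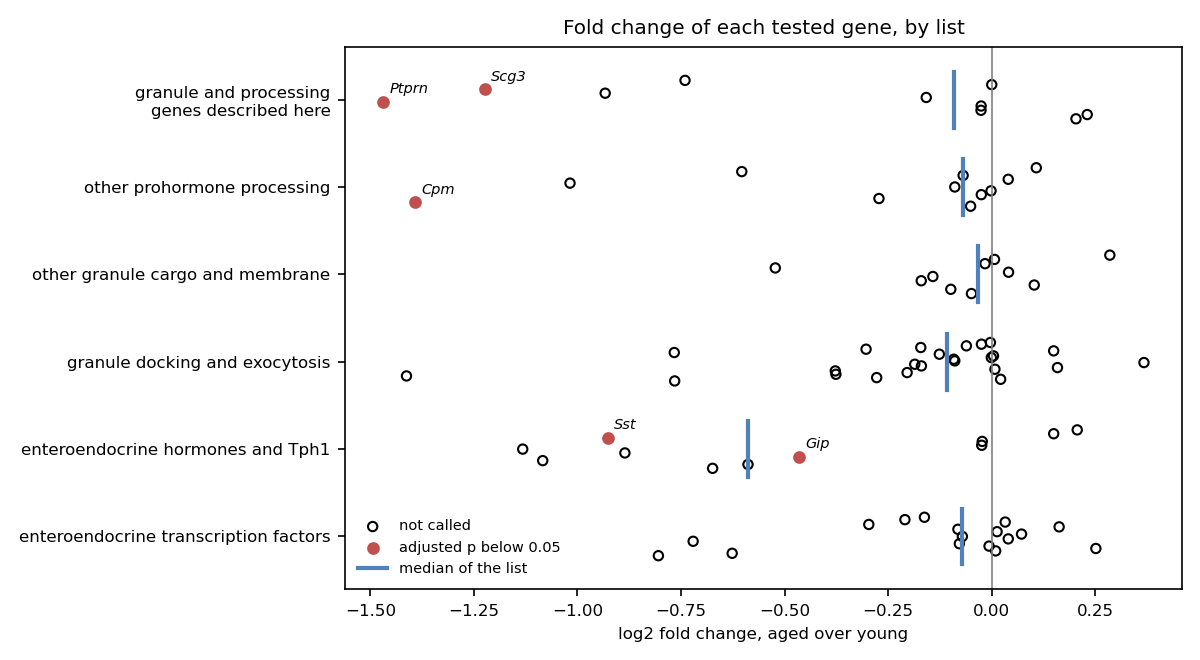
Log2 fold change, aged over young, of each tested gene in the 10 genes described here and in 5 related lists (points; filled red points passed an adjusted p of 0.05), with the median of each list as a blue line. The medians lie between -0.59 for the hormones and -0.03 for other granule cargo, and the called genes are Ptprn, Scg3, Cpm, Sst and Gip.

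Likeness to the members was measured over the 6 libraries as the root mean square difference between log2 CPM profiles, each centred on its own mean. Among 11525 candidates that averaged 1 CPM or more, those near to the mean profile of the 10 members included Mapk8ip1 (0.0705), Bcam (0.0732), Zfp30 (0.0735) and Mapk8ip2 (0.0820). Their log2 fold changes lay between -0.52 and -0.37, and edgeR called none of them (adjusted p between 0.202 and 0.790). That mean profile joins members that differed, with 0.869 between Chgb and Ptprn. Nearest to Scg3 were Fbxo10 (0.0846), Jph4 (0.126), Clps (0.165), Agt (0.169) and Adcy8 (0.178). Adcy8, a calcium-stimulated adenylyl cyclase, had 3.00, 2.76 and 3.37 CPM in aged and 6.07, 8.18 and 7.35 CPM in young libraries (edgeR adjusted p = 0.00986), and Clps, which encodes colipase, had 64.3, 69.8 and 62.8 CPM in aged and 125, 112 and 166 CPM in young libraries (edgeR adjusted p = 0.00923). All these profiles share the same libraries and the split by age, so nearness to Scg3 holds little beyond that split.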

How the data were processed

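The values in the deposited table are raw counts of reads for each gene, judged from whole numbers and unequal totals. Tools in the submitters' processing notes include STAR, HISAT2 2.1.0 and featureCounts 1.6.4, with no roles, and the build is GRCm38. Per the labels' protocols, libraries came from poly(A) RNA with a stranded kit. Whether counting used strand is not given in the sources used here. Counts of overlapping antisense genes are therefore uncertain. Exon lengths and gene positions are from GENCODE M21 (GRCm38), where 45229 of the 46078 gene IDs were found.

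Genes were kept by filterByExpr (minimum count 10), scaled with TMM factors and tested with edgeR 4.0.16 (quasi-likelihood, robust, age as the only term, all 6 libraries, R 4.3.3), with Benjamini-Hochberg adjustment over all 14923 genes. The standard error is the size of the log2 fold change over the square root of F. For profiles, a prior count of 2 was added before log2 CPM. The fit was tested on simulated data. Replicates are numbered in record order, and the labels neither state nor exclude a pairing. The floor of 3 counts, given for Pcsk2, covers counting error only. The smallest chi-square per gene between replicates was 27.0, where sampling noise gives about 1. Alternatives were DESeq2 1.42.0, limma-voom (limma 3.58.1), other scaling and filters, fits without robust estimation and fits without each library.

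The members and lists were chosen with earlier results of these data known. Beyond the members, the text names up to 4 called genes per list, or the 2 most abundant, Pcsk2, Pcsk1n, Pam and Vgf in any case, and the 5 most alike genes of each profile. Ratios to single members were added after the values were seen. Protein sequences were not used here, and some genes that the rule names are not reported here.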

Additional observations from a re-analysis of the deposited data

How the results depend on the processing

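No paired analysis was run, because the labels give no replicate numbers and state no pairing. The call of Ptprn held in all 14 alternatives and that of Scg3 in 12. The number of members called lower lay between 1 and 3 over the fits without 1 library (1 when aged replicate 1 or 2 was left out, 3 when aged replicate 3 was), and 0 members were called higher in any alternative. The median of the members lay between -0.19 and 0.05 in these fits, above 0 without young replicate 3. Over all genes, those called higher lay between 35 and 135 and those called lower between 30 and 135 without 1 library. DESeq2 called 206 higher and 276 lower, the analysis without a low-count filter 168 and 245, and the filter of 1 CPM in 3 libraries 67 lower. The causes were not tested.

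Signs turned in genes that were not called. Without 1 library, log2 fold changes ranged from -0.094 to 0.13 for Scg5, -0.14 to 0.083 for Pcsk1, -0.13 to 0.14 for Cpe, -0.26 to 0.021 for Ptprn2, -0.24 to 0.044 for Pam, -0.26 to 0.39 for Pcsk2, -0.11 to 0.078 for Neurog3, -0.087 to 0.026 for Ddc, -0.072 to 0.011 for Unc13b, -0.27 to 0.24 for Tubb3, -0.15 to 0.29 for Vim, -0.049 to 0.081 for Krt8, -0.089 to 0.038 for Krt19 and -0.24 to 0.12 for Ptprc. Scg5 was -0.00053 with DESeq2, -0.0022 with RLE factors, -0.017 with upper-quartile factors and -0.0086 with the filter of 1 CPM. With upper-quartile factors Neurog3, Vim and Krt8 were -0.0032, -0.0078 and -0.0034. With limma-voom Tubb3 was 0.0092.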

Other observations

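Of the genes near Scg3, Agt was also called (edgeR adjusted p = 0.0451) and kept its call in 1 of the 6 fits without 1 library, while Adcy8 and Clps kept theirs in 4 and 5.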
